A study of Homo sapiens with 22 samples.

Results

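Collagen genes were followed across every group of an RNA-seq series on neuroblastoma cells. They were taken as all rows of the count table whose symbol has the form COL, a number, A and a number, which gave 44 of 35237 rows. Of these, 11 encode chains of fibrillar collagens, 6 chains of basement membrane (type IV) collagen, 5 chains of beaded filament (type VI) collagen, and 22 belong to other types. Both cell lines, SK-N-AS and GIMEN, are established from human neuroblastoma, a childhood tumour of sympathetic nerve precursors, and their labels call them mesenchymal. PP121, a kinase inhibitor, and bufalin, a cardiac glycoside, were the agents. SK-N-AS was left untreated in DMEM with 10% fetal bovine serum (4 libraries), or given 5 µM PP121 in DMEM with 1% serum for 4 days (S1D4, 4 libraries). S1D4 cells were then moved to Neurobasal medium with the B27 supplement and 5 µM PP121 plus 100 nM bufalin, for 4 days (S2D4, 4 libraries) or 30 days (S2D30, 4 libraries). GIMEN was left untreated in RPMI with 10% serum (3 libraries) or given 2.5 µM PP121 and 10 nM bufalin in RPMI with 1% serum for 30 days (D30, 3 libraries).

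Collagens are secreted or membrane-bound proteins in which chains wind into a triple helix, and each chain is the product of its own gene. Fibrillar chains form the cross-striated fibrils of connective tissue, type IV chains form the sheet under epithelia and around nerve, muscle and Schwann cells, and type VI chains form beaded filaments where the fibrils meet it. Fibril-associated collagens sit on fibrils, transmembrane collagens span the cell membrane, and multiplexins carry heparan or chondroitin sulfate. In neuroblastoma, collagen expression is a known feature of mesenchymal-type cells and of the Schwannian stroma of differentiating tumours.

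The libraries held 16456484 to 37506800 counts, and levels are given as CPM, counts scaled to a common library total. They use 1 TMM scaling of all 22 libraries and are listed in the order of the replicate numbers. A gene is called where the adjusted p of edgeR's quasi-likelihood test is under 0.05, and a library with at most 3 counts of a gene is at the detection floor. Fold changes are on the log2 scale, with the standard error of the fit (SE). The 3 treated SK-N-AS groups were compared with the same 4 untreated libraries, and so share them. S2D4 replicate 4 stood apart, with a mean correlation of 0.968 to its group where the other S2D4 libraries had 0.982 to 0.983, and results that rest on it are also given without it. Untreated SK-N-AS replicate 4, part of that shared reference, stood apart less, at 0.979 where the other untreated SK-N-AS libraries had 0.985. Both untreated lines had all 6 mesenchymal marker genes above 1 CPM and also adrenergic ones. HAND2 had means of 578 CPM in untreated SK-N-AS and 363 in untreated GIMEN, and GATA3 of 131 and 60.2 CPM. ISL1, at 44.7 and 1.23 CPM, and DBH, the enzyme that makes noradrenaline, at 76.6 and 0.102 CPM, were low in GIMEN. PTPRC, a white blood cell gene, had group means from 177 CPM in untreated SK-N-AS to 0.850 in S2D30, while CD3E was at 0 in every SK-N-AS group. The summed CPM of the 5 white blood cell markers was 159.7 to 208 untreated and 3.02 to 5.43 in S2D30, and its part in the results was not tested. Fewer cells of a type and less RNA per cell cannot be told apart in these bulk libraries. Nothing in the labels says that replicates came from separate cultures, so p-values measure only the spread between these libraries. Treated and untreated groups also differed in serum or medium, and agent and medium cannot be told apart.

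Together the collagen genes made up 0.200 to 0.484% of the counts in SK-N-AS libraries. For GIMEN the share was 1.30 to 1.34% without treatment and 0.230 to 0.306% after 30 days. Their summed level was 2810.1 ± 240.2 CPM (SD, n = 4) without treatment in SK-N-AS. It was 3869 ± 408 after S1D4, 4007 ± 359.8 after S2D4, and 2099 ± 48.8 after S2D30. Untreated GIMEN stood at 15065 ± 168 CPM (SD, n = 3) and treated GIMEN at 2873 ± 335. GIMEN thus had the highest total untreated, and after 30 days its total was in the range of the SK-N-AS groups. Without S2D4 replicate 4, the S2D4 total was 3868 CPM.

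The classes that made up that total differed between the groups. In untreated SK-N-AS, fibrillar genes gave 1727 ± 174 CPM and beaded genes 651 ± 61.7. By S2D30 the fibrillar sum was 192 ± 14.6 CPM and the beaded sum 1511 ± 37.4, so that the order of both classes was turned around. Basement membrane genes summed to 183 ± 32.1 CPM untreated, 425 ± 50.7 in S2D4 and 182 ± 9.25 in S2D30. In untreated GIMEN the fibrillar sum was 12622 ± 145 CPM, against 1778 ± 366 after 30 days. GIMEN's basement membrane genes stayed near 314 ± 11.8 CPM untreated and 328 ± 24.5 after 30 days. COL3A1 was 35.4% of all collagen CPM in untreated SK-N-AS, COL6A2 was 49.9% in S2D30, and COL1A1 was 60.2% in untreated GIMEN. The heat map of all collagen genes shows the same groups library by library.

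**Figure D1:**
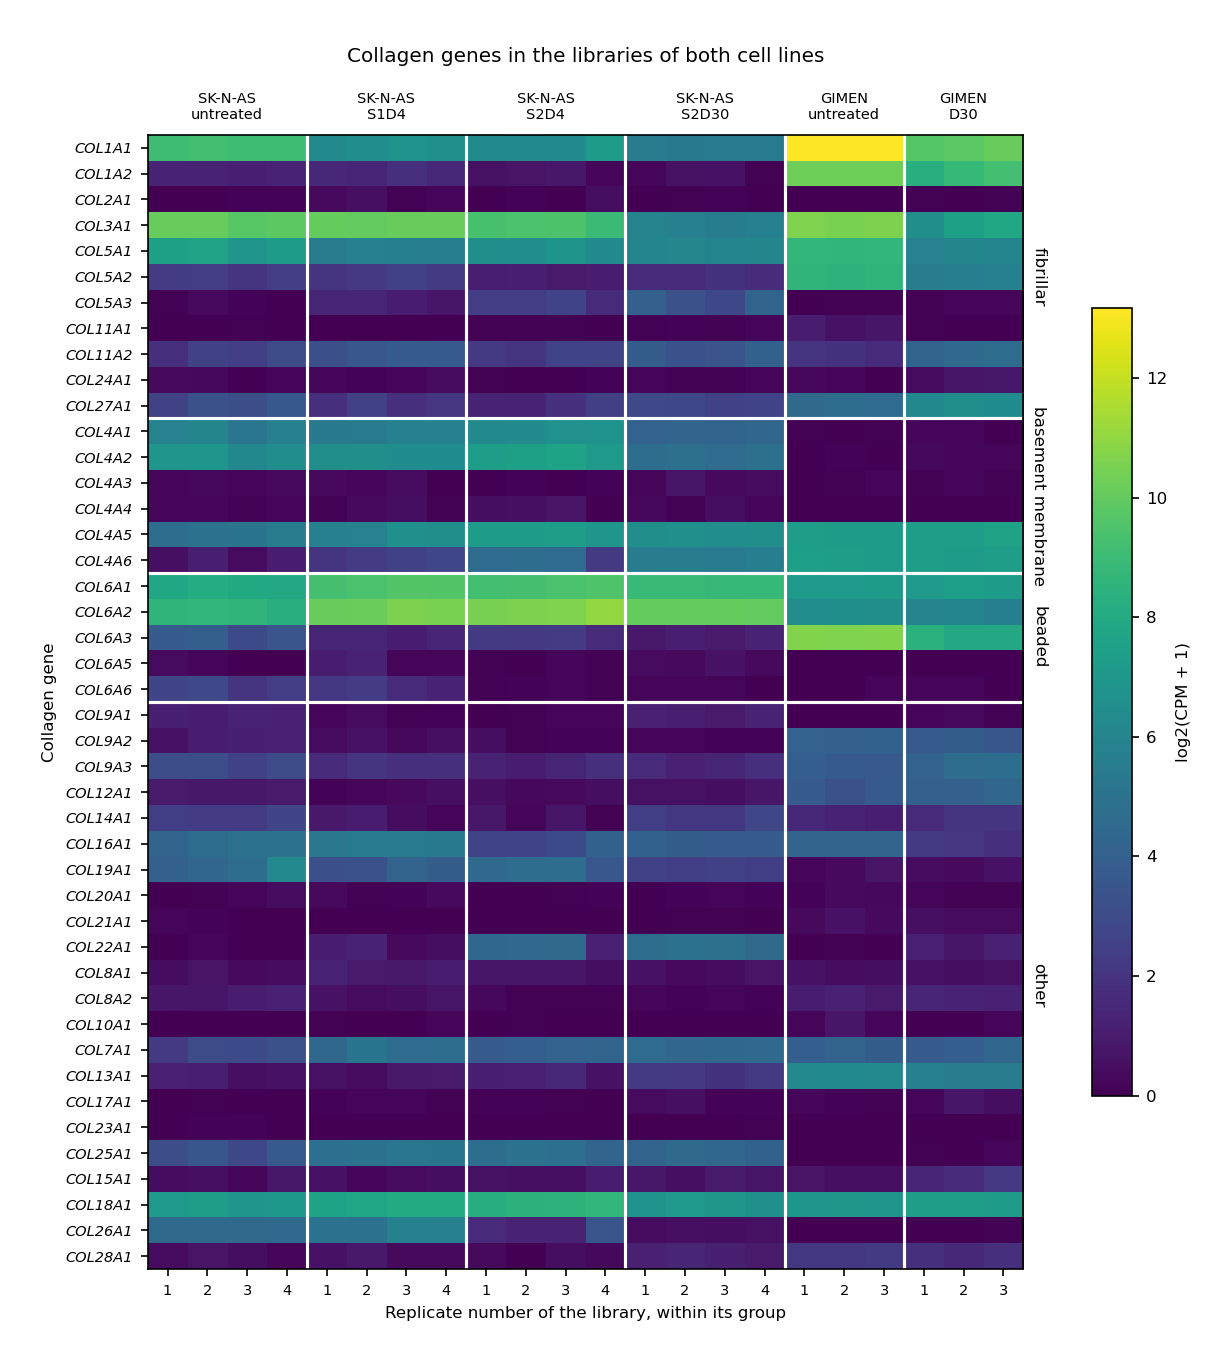
Expression of the 44 collagen genes (rows, by class) in the 22 libraries (columns, by group and replicate number), coloured by log2(CPM + 1). COL1A1 is brightest in untreated GIMEN (8954 to 9181 CPM), COL6A2 in S2D4 (1393 to 2074 CPM), and the COL4A6, COL22A1 and COL26A1 cells of S2D4 replicate 4 differ from those of the other S2D4 libraries.

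Of the 44 genes, 33 passed the filter on low counts in SK-N-AS and 24 in GIMEN, and a gene could pass through the group in which it is high. In S1D4, 11 collagen genes rose and 11 fell against untreated cells, where 17.6% of all tested genes were called higher and 22.4% lower. In S2D4, 11 rose and 16 fell, against 30.9% and 32.2% of all genes. In S2D30, 11 rose and 15 fell, against 33.8% and 36.5%. The number of falls among 33 genes was above the share over all genes in each of these comparisons. The number of rises was near that share except in S1D4. These comparisons share the untreated libraries, and whether collagens differed from all genes was not tested. The median log2 fold change of the tested collagens was -0.06 in S1D4, -0.68 in S2D4 and -0.57 in S2D30, with -0.01, -0.02 and -0.03 over all genes. Leaving out S2D4 replicate 4 left 11 rises and 16 falls in S2D4.

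Between successive SK-N-AS groups, 9 collagens rose and 9 fell from S1D4 to S2D4, with 28.3% of all genes called higher and 26.8% lower, and the median was -0.33 (all genes 0.02). From S2D4 to S2D30, 10 rose and 12 fell, with 24.4% and 26.9% over all genes, and the median was 0.18 (all genes -0.02). Without S2D4 replicate 4 these counts were 11 and 13 for the first step and 11 and 13 for the second. In GIMEN, 8 of 24 rose and 11 fell after 30 days, with 35.5% of all genes called higher and 36.0% lower, and the median was -0.04 (all genes 0.02).

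By class, fibrillar genes fell more often than they rose in S2D4 (1 rise and 6 falls among 8 tested), in S2D30 (2 and 5) and in GIMEN (2 and 5 among 7 tested). Over all genes the shares called higher and lower were 30.9% and 32.2% in S2D4, 33.8% and 36.5% in S2D30, and 35.5% and 36.0% in GIMEN, and counts from so few genes are given as a description. All 4 tested basement membrane genes rose in S2D4, and in S2D30 they split into 2 rises and 2 falls. Neither of the 2 tested in GIMEN was called. Beaded genes gave 2 rises and 2 falls in S2D30 among 4 tested, and 2 falls with no rise among 3 in GIMEN. The 17 tested genes of other types gave 5 rises and 6 falls in S2D30, and the 12 in GIMEN gave 6 rises and 4 falls. Whether classes differed from each other was not tested.

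Type I collagen, the main fibril protein of bone, skin and tendon, is built from the products of COL1A1 and COL1A2. COL1A1 was at 545, 583, 546 and 531 CPM in the untreated SK-N-AS libraries, 78.9, 86.9, 107 and 96.6 CPM in S1D4, 77.1, 74.2, 80.1 and 148 in S2D4, and 45.0, 38.9, 41.8 and 44.3 in S2D30. Every treated library lay below every untreated one. COL1A1 had log2 fold changes against untreated cells of -2.60 (SE 0.18, adjusted p = 3.50e-08) in S1D4, -2.58 (SE 0.18, adjusted p = 3.68e-09) in S2D4, and -3.73 (SE 0.19, adjusted p = 3.75e-11) in S2D30. In GIMEN, COL1A1 was at 9054, 8954 and 9181 CPM in the untreated libraries and at 839, 903 and 1103 CPM after 30 days. The GIMEN groups did not overlap, and the log2 fold change was -3.28 (SE 0.11, adjusted p = 4.11e-10).

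COL1A2 was at 1.36, 1.49, 1.19 and 1.47 CPM in the untreated SK-N-AS libraries, 1.81, 1.55, 2.45 and 1.91 CPM in S1D4, 0.512, 0.597, 0.800 and 0.194 in S2D4, and 0.132, 0.512, 0.589 and 0.0434 in S2D30. The S2D4 and S2D30 libraries were all below the untreated ones, and S1D4 was all above. COL1A2 had log2 fold changes against untreated cells of 0.46 (SE 0.42, adjusted p = 0.419) in S1D4, -1.45 (SE 0.47, adjusted p = 0.0126) in S2D4, and -2.15 (SE 0.50, adjusted p = 0.00101) in S2D30. In GIMEN, COL1A2 was at 1214, 1238 and 1203 CPM in the untreated libraries and at 308, 448 and 604 CPM after 30 days. Its fall in GIMEN was -1.45 (SE 0.18, adjusted p = 2.46e-05), and the groups did not overlap. SK-N-AS thus had COL1A1 with little COL1A2, whereas GIMEN had both.

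COL3A1 encodes the single chain of type III collagen, which forms fibrils together with type I. COL3A1 was at 1097, 1097, 854 and 929 CPM in the untreated SK-N-AS libraries, 1062, 1038, 1117 and 1085 CPM in S1D4, 638, 693, 723 and 494 in S2D4, and 57.8, 51.4, 47.5 and 53.7 in S2D30. S1D4 overlapped the untreated libraries, S2D4 lay wholly below them, and S2D30 lower still. COL3A1 had log2 fold changes against untreated cells of 0.09 (SE 0.12, adjusted p = 0.592) in S1D4, -0.68 (SE 0.12, adjusted p = 9.15e-05) in S2D4, and -4.28 (SE 0.13, adjusted p = 1.55e-13) in S2D30. In GIMEN, COL3A1 was at 1574, 1466 and 1513 CPM in the untreated libraries and at 88.4, 175 and 226 CPM after 30 days. In GIMEN the change was -3.24 (SE 0.26, adjusted p = 5.63e-07), with no overlap. COL3A1 therefore did not follow COL1A1 at S1D4, where COL1A1 had fallen by 2.60 on the log2 scale, but both were low by S2D30.

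Type V chains join type I fibrils and limit their width. COL5A1 was at 184, 204, 114 and 151 CPM in the untreated SK-N-AS libraries, 46.9, 53.7, 49.5 and 48.8 CPM in S1D4, 89.6, 87.7, 110.2 and 80.6 in S2D4, and 61.4, 67.9, 60.2 and 64.8 in S2D30. All treated SK-N-AS libraries lay below the untreated ones, with S1D4 the lowest group. COL5A1 had log2 fold changes against untreated cells of -1.74 (SE 0.15, adjusted p = 2.56e-07) in S1D4, -0.86 (SE 0.14, adjusted p = 5.83e-05) in S2D4, and -1.40 (SE 0.14, adjusted p = 2.01e-07) in S2D30. In GIMEN, COL5A1 was at 422, 405 and 421 CPM in the untreated libraries and at 56.3, 64 and 60.1 CPM after 30 days. Its GIMEN groups were apart, at -2.82 (SE 0.07, adjusted p = 3.60e-11).

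COL5A2 was at 3.98, 4.28, 3.10 and 4.24 CPM in the untreated SK-N-AS libraries, 3.05, 3.63, 4.85 and 3.68 CPM in S1D4, 1.16, 1.19, 0.941 and 1.00 in S2D4, and 2.02, 2.10, 2.81 and 2.22 in S2D30. S1D4 overlapped untreated cells, and S2D4 and S2D30 lay below both. COL5A2 had log2 fold changes against untreated cells of -0.06 (SE 0.19, adjusted p = 0.816) in S1D4, -1.89 (SE 0.20, adjusted p = 5.06e-07) in S2D4, and -0.81 (SE 0.19, adjusted p = 0.00122) in S2D30. In GIMEN, COL5A2 was at 389, 367 and 384 CPM in the untreated libraries and at 45.9, 47.7 and 54.2 CPM after 30 days. COL5A2 fell there by 2.97 on the log2 scale (SE 0.08, adjusted p = 5.48e-11), without overlap.

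COL5A3, the remaining type V chain gene, went the other way in SK-N-AS. COL5A3 was at 0.0495, 0.262, 0.0954 and 0 CPM in the untreated SK-N-AS libraries, 1.61, 1.55, 0.970 and 0.754 CPM in S1D4, 4.28, 4.23, 5.18 and 2.01 in S2D4, and 15.4, 8.75, 6.12 and 18.2 in S2D30. Every treated library was above every untreated one. COL5A3 had log2 fold changes against untreated cells of 3.69 (SE 0.65, adjusted p = 0.000277) in S1D4, 5.36 (SE 0.61, adjusted p = 1.02e-06) in S2D4, and 6.99 (SE 0.60, adjusted p = 2.22e-08) in S2D30. Untreated counts were few, at 0 to 6 per library, so that the size of the fold is loose: without untreated replicate 2 it was 4.65 in S1D4, 6.32 in S2D4 and 7.94 in S2D30. COL5A3 was at the floor in all GIMEN libraries, with at most 0.193 CPM, and was not tested there.

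COL11A2 encodes a chain of type XI collagen, a partner of type II fibrils in cartilage. COL11A2 was at 2.37, 4.94, 4.34 and 7.05 CPM in the untreated SK-N-AS libraries, 8.12, 11.1, 13.3 and 12.3 CPM in S1D4, 3.63, 3.09, 5.22 and 5.51 in S2D4, and 13.8, 8.80, 10.2 and 16.1 in S2D30. S1D4 and S2D30 lay above all untreated libraries and S2D4 overlapped them. COL11A2 had log2 fold changes against untreated cells of 1.24 (SE 0.29, adjusted p = 0.00247) in S1D4, -0.12 (SE 0.29, adjusted p = 0.741) in S2D4, and 1.36 (SE 0.29, adjusted p = 0.000462) in S2D30. In GIMEN, COL11A2 was at 3.15, 2.75 and 2.03 CPM in the untreated libraries and at 18.2, 21.5 and 23.8 CPM after 30 days. The rise in GIMEN was 2.96 (SE 0.17, adjusted p = 3.40e-08), with no overlap. COL27A1 encodes a fibrillar chain found in cartilage and other tissues. COL27A1 was at 5.12, 8.74, 7.83 and 11.4 CPM in the untreated SK-N-AS libraries, 2.57, 4.99, 2.40 and 3.28 CPM in S1D4, 1.49, 1.52, 2.68 and 4.70 in S2D4, and 6.45, 6.14, 4.94 and 5.30 in S2D30. S1D4 and S2D4 lay below untreated cells, and S2D30 overlapped them. COL27A1 had log2 fold changes against untreated cells of -1.35 (SE 0.34, adjusted p = 0.00431) in S1D4, -1.68 (SE 0.34, adjusted p = 0.000408) in S2D4, and -0.57 (SE 0.33, adjusted p = 0.130) in S2D30. In GIMEN, COL27A1 was at 22.5, 24.3 and 23.3 CPM in the untreated libraries and at 70.4, 90.8 and 84.3 CPM after 30 days. COL27A1 rose in GIMEN, by 1.78 on the log2 scale (SE 0.10, adjusted p = 2.07e-08).

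**Figure D2:**
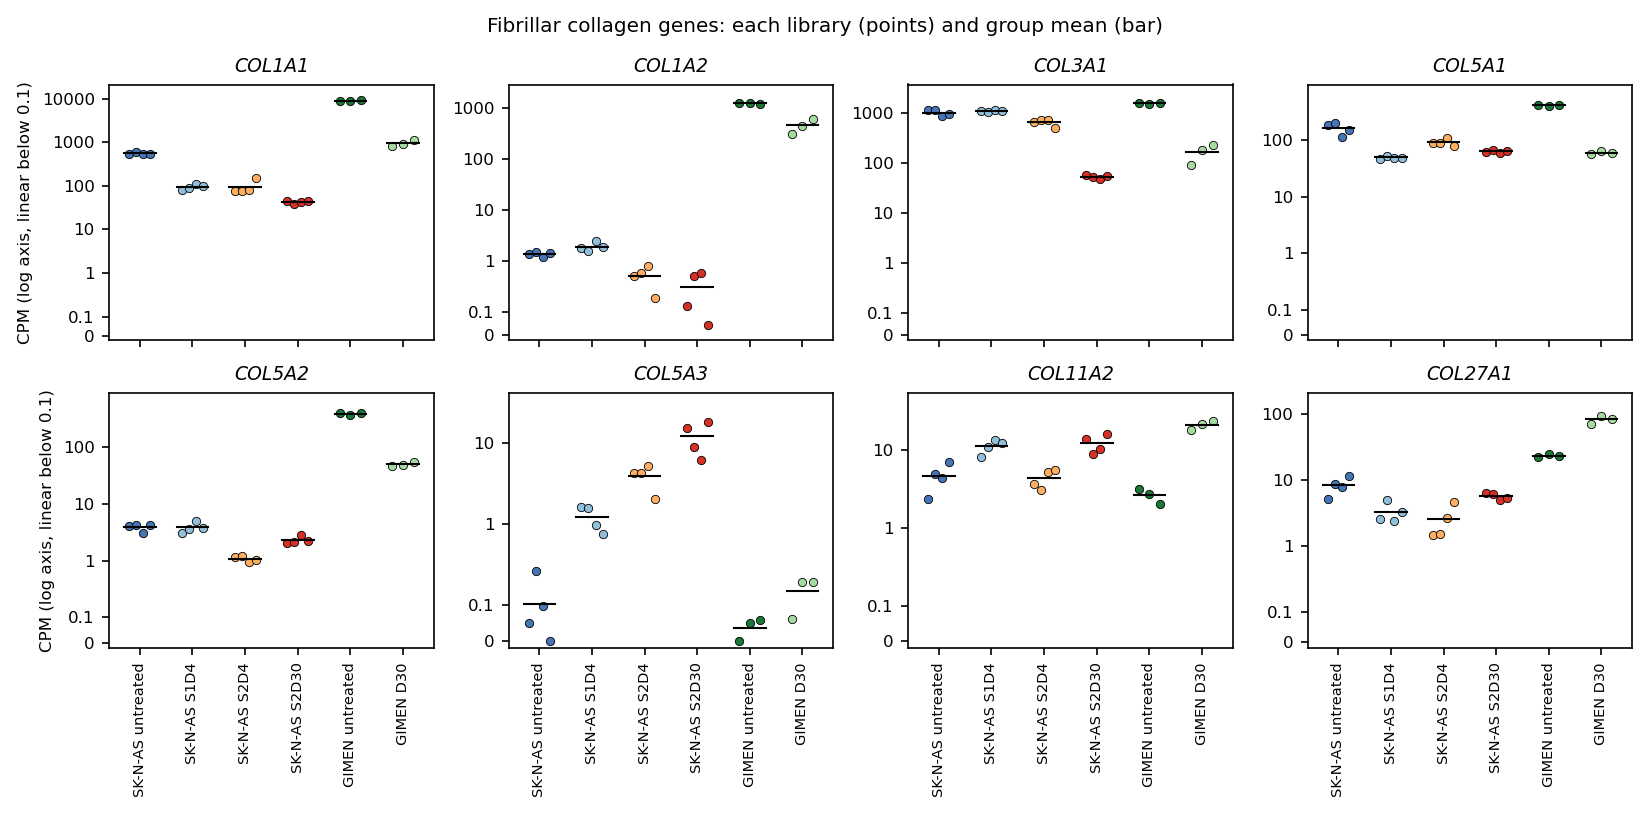
CPM of 8 fibrillar collagen genes in each library (points) and the group mean (bar), on a log axis that is linear below 0.1. COL1A1, COL3A1 and COL5A1 are lower in S2D30 and in GIMEN D30 than in the untreated libraries of their line, COL5A3 is higher in the treated SK-N-AS groups, and COL11A2 is higher in GIMEN D30 (18.2 to 23.8 CPM) than untreated (2.03 to 3.15 CPM).

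The remaining fibrillar genes were close to absent. COL2A1, the cartilage fibril gene, had at most 0.471 CPM in any library, and COL24A1 at most 0.771. COL11A1 was at the floor in all SK-N-AS libraries and at 1.03, 0.540 and 0.735 CPM in untreated GIMEN. Its ratio of pooled CPM to untreated SK-N-AS was 44.8 (11.7 to 382). After 30 days it had 1 count in 1 GIMEN library and none in the others.

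Type IV genes lie in head-to-head pairs, COL4A1 with COL4A2, COL4A3 with COL4A4, and COL4A5 with COL4A6, each pair on opposite strands with no gene between. COL4A1 and COL4A2 together give the network found in nearly all basement membranes, while COL4A5 and COL4A6 give the network of smooth muscle and some epithelia. COL4A1 was at 55.6, 61.9, 34.4 and 52.9 CPM in the untreated SK-N-AS libraries, 39.6, 42.8, 53.9 and 53.7 CPM in S1D4, 74.0, 82.1, 102 and 108 in S2D4, and 16.5, 18.9, 18.0 and 19.5 in S2D30. Only S2D4 lay wholly above untreated cells and only S2D30 wholly below. COL4A1 had log2 fold changes against untreated cells of -0.13 (SE 0.16, adjusted p = 0.550) in S1D4, 0.80 (SE 0.16, adjusted p = 0.000409) in S2D4, and -1.53 (SE 0.17, adjusted p = 4.47e-07) in S2D30. COL4A2 was at 116, 119, 70.3 and 87.6 CPM in the untreated SK-N-AS libraries, 88.3, 90.4, 83.8 and 84.6 CPM in S1D4, 162, 178, 199 and 140 in S2D4, and 25.7, 28.3, 23.5 and 28.5 in S2D30. The order of the groups was the same as for COL4A1. COL4A2 had log2 fold changes against untreated cells of -0.21 (SE 0.14, adjusted p = 0.278) in S1D4, 0.75 (SE 0.14, adjusted p = 0.000252) in S2D4, and -1.93 (SE 0.15, adjusted p = 6.85e-09) in S2D30. Both genes thus rose to S2D4 and were at their lowest in S2D30.

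GIMEN had almost no reads of the pair. COL4A1 had 0 to 1 counts per untreated library and 0 to 3 after 30 days, and COL4A2 had 0 to 2 and 2 to 4. Neither passed the filter in GIMEN. Against untreated SK-N-AS, the ratio of pooled CPM in untreated GIMEN was 0.000666 (8.06e-05 to 0.00241) for COL4A1 and 0.000347 (4.20e-05 to 0.00125) for COL4A2, each with a counting interval that covers counting error only.

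COL4A5 was at 24.9, 28.9, 32.1 and 45.3 CPM in the untreated SK-N-AS libraries, 52.9, 56.0, 97.5 and 90.8 CPM in S1D4, 150, 152, 162 and 114 in S2D4, and 90.9, 97.3, 87.2 and 89.5 in S2D30. All treated libraries were above all untreated ones, and S2D4 was the highest group. COL4A5 had log2 fold changes against untreated cells of 1.16 (SE 0.20, adjusted p = 0.000239) in S1D4, 2.10 (SE 0.20, adjusted p = 1.64e-07) in S2D4, and 1.44 (SE 0.20, adjusted p = 6.69e-06) in S2D30. COL4A6 was at 0.445, 1.14, 0.286 and 1.04 CPM in the untreated SK-N-AS libraries, 3.05, 4.00, 4.81 and 6.08 CPM in S1D4, 23.0, 25.3, 23.3 and 3.73 in S2D4, and 46.8, 45.7, 40.4 and 49.0 in S2D30. Again no treated library fell into the untreated range, and S2D30 was highest. COL4A6 had log2 fold changes against untreated cells of 2.60 (SE 0.52, adjusted p = 0.000873) in S1D4, 4.65 (SE 0.52, adjusted p = 7.87e-07) in S2D4, and 5.93 (SE 0.53, adjusted p = 3.46e-08) in S2D30. S2D4 replicate 4 was far below the other S2D4 libraries, and without it the S2D4 value was 5.00. In GIMEN, COL4A5 was at 157, 148 and 148 CPM in the untreated libraries and at 161, 162 and 188 CPM after 30 days. In GIMEN, COL4A6 was at 170.2, 162 and 157 CPM in the untreated libraries and at 161, 144 and 167 CPM after 30 days. The GIMEN groups overlapped for COL4A6 and not for COL4A5. Neither change was called in GIMEN, at 0.15 (SE 0.07, adjusted p = 0.0930) for COL4A5 and -0.08 (SE 0.07, adjusted p = 0.334) for COL4A6. Without D30 replicate 1, COL4A5 was called at 0.19 (adjusted p = 0.0359). GIMEN therefore had both genes of this pair high from the start, and SK-N-AS raised both under treatment.

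The sequences before the starts of COL4A5 and COL4A6 are shown because both genes of this pair rose in each treated SK-N-AS group and are read outward from one stretch of the X chromosome. They are from RefSeq on build GRCh38.p14, 5′ to 3′ on the strand of the gene, cut to the part that holds no annotated exon. COL4A6 has 2 annotated starts, 379 and 1415 bases from the COL4A5 start. Capitals mark the CCAAT box (CCAAT, or ATTGG on the other strand) and the GC box (GGGCGG, or CCGCCC).
COL4A5, chrX:108439588-108439837, plus strand: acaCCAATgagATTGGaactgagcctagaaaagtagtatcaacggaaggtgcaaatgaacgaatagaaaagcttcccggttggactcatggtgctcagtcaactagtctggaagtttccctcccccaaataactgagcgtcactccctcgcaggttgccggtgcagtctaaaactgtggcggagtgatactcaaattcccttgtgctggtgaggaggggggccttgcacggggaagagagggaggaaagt
COL4A6 start 1, chrX:108439498-108439708, minus strand: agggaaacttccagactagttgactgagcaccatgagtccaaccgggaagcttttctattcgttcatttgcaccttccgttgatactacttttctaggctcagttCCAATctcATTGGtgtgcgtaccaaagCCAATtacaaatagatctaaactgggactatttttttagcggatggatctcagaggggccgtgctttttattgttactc
COL4A6 start 2, chrX:108438431-108438672, minus strand: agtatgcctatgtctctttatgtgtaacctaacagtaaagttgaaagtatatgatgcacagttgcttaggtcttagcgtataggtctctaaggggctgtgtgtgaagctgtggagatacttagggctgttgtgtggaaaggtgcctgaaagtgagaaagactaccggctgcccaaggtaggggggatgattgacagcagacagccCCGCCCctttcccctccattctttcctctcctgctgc
The COL4A5 stretch held 2 CCAAT boxes and the first COL4A6 stretch 3, of which 2 are the same letters read from the other strand. The second COL4A6 stretch held 1 GC box. Of 35114 windows of 250 bases before the starts of all genes, 32% held a CCAAT box, 42.6% a GC box and 10.7% the TATA box (TATAAA). Of the 32 collagen genes with a window, 11, 21 and 7 had the box in at least 1 window. These 32 genes had 44 windows, so counts per gene and shares per window are not alike and were not compared. Such matches describe the letters and not a bound factor.

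Type VI filaments are built from a COL6A1 chain, a COL6A2 chain and one further chain, most often that of COL6A3, with COL6A5 and COL6A6 as alternatives. COL6A1 was at 232, 283, 254 and 248 CPM in the untreated SK-N-AS libraries, 613, 660.4, 796 and 778 CPM in S1D4, 569.8, 625, 666 and 751 in S2D4, and 491, 465, 442 and 453 in S2D30. Every treated library was above every untreated one. COL6A1 had log2 fold changes against untreated cells of 1.46 (SE 0.11, adjusted p = 5.23e-08) in S1D4, 1.33 (SE 0.11, adjusted p = 1.48e-08) in S2D4, and 0.83 (SE 0.10, adjusted p = 2.08e-06) in S2D30. COL6A2 was at 395, 419, 396 and 311 CPM in the untreated SK-N-AS libraries, 1109, 1169, 1506 and 1450.4 CPM in S1D4, 1393, 1494, 1594 and 2074 in S2D4, and 1056, 1066, 1056 and 1009.6 in S2D30. The groups were again apart from untreated cells. COL6A2 had log2 fold changes against untreated cells of 1.75 (SE 0.14, adjusted p = 1.41e-07) in S1D4, 2.07 (SE 0.14, adjusted p = 2.33e-09) in S2D4, and 1.42 (SE 0.14, adjusted p = 8.78e-08) in S2D30. Both genes lie on chromosome 21, read in the same direction with 5 genes between them.

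The chain that joins them changed in the other direction. COL6A3 was at 13.3, 14.7, 6.63 and 9.98 CPM in the untreated SK-N-AS libraries, 1.57, 1.55, 1.10 and 1.60 CPM in S1D4, 3.77, 3.58, 4.00 and 2.11 in S2D4, and 0.834, 1.18, 0.951 and 1.48 in S2D30. All treated libraries lay below all untreated ones. COL6A3 had log2 fold changes against untreated cells of -2.96 (SE 0.28, adjusted p = 8.44e-07) in S1D4, -1.77 (SE 0.26, adjusted p = 1.89e-05) in S2D4, and -3.36 (SE 0.29, adjusted p = 2.12e-08) in S2D30. COL6A6 was at 5.61, 6.56, 2.91 and 4.27 CPM in the untreated SK-N-AS libraries, 3.38, 4.05, 1.98 and 1.37 CPM in S1D4, 0.0466, 0.109, 0.141 and 0.0648 in S2D4, and 0.132, 0.154, 0.181 and 0 in S2D30. S1D4 overlapped the untreated libraries, and S2D4 and S2D30 had at most 4 counts a library. COL6A6 had log2 fold changes against untreated cells of -0.87 (SE 0.37, adjusted p = 0.0703) in S1D4, -5.74 (SE 0.54, adjusted p = 1.07e-07) in S2D4, and -5.37 (SE 0.52, adjusted p = 9.03e-08) in S2D30. S2D4 was at the floor in every library, so its fitted value depends on the prior count, and the ratio of pooled CPM was 0.0176 (0.00756 to 0.0349). With a term that sets replicates 3 and 4 of the untreated and S1D4 groups apart, the S1D4 change of COL6A6 was called, at -0.92 (adjusted p = 0.0138). It was also called without S1D4 replicate 2, at -1.13 (adjusted p = 0.0362), or without untreated replicate 3, at -1.05 (adjusted p = 0.0435). COL6A5 had at most 1.46 CPM in any library and was not tested. In treated SK-N-AS, COL6A1 and COL6A2 thus rose while the tested genes for the joining chain did not.

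In GIMEN, COL6A1 was at 135, 134 and 142 CPM in the untreated libraries and at 135, 169 and 147 CPM after 30 days. In GIMEN, COL6A2 was at 86.9, 93.9 and 88.4 CPM in the untreated libraries and at 58.3, 61.1 and 50 CPM after 30 days. COL6A1 overlapped between groups and COL6A2 did not. The changes were 0.11 (SE 0.08, adjusted p = 0.244) for COL6A1 and -0.70 (SE 0.08, adjusted p = 7.29e-06) for COL6A2. COL6A1 was called without D30 replicate 1, at 0.19 (adjusted p = 0.0276). In GIMEN, COL6A3 was at 1654, 1593 and 1628 CPM in the untreated libraries and at 336, 243 and 243 CPM after 30 days. Its fall of 2.60 on the log2 scale (SE 0.12, adjusted p = 4.77e-09) exceeded those of COL6A1 and COL6A2.

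The stretch before COL6A2, the collagen gene with the highest level in S2D30, is shown with the TATA box and GC boxes in capitals.
COL6A2, chr21:46097862-46098096, plus strand: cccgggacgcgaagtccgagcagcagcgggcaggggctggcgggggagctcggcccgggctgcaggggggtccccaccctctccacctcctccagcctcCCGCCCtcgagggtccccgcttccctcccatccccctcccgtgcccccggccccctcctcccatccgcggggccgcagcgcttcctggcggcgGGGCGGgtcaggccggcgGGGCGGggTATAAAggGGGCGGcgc
It held 1 TATA box and 4 GC boxes. Its full window of 250 bases was 79.6% G or C, where the median of all windows was 58%. The COL4A5 window was 51.2% G or C.

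**Figure D3:**
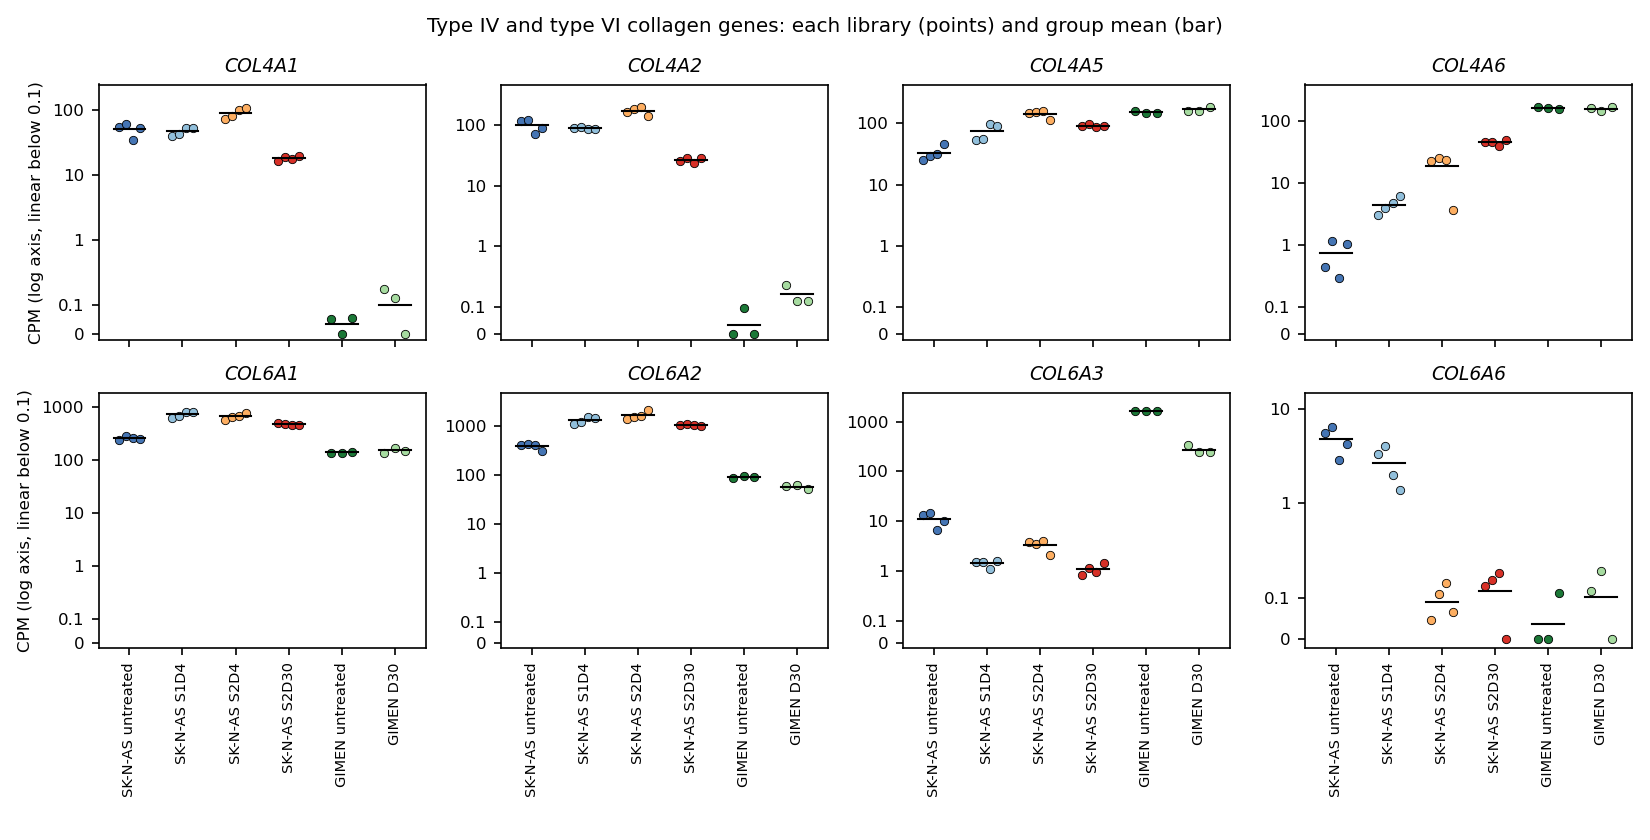
CPM of type IV and type VI collagen genes in each library (points) and the group mean (bar), on a log axis that is linear below 0.1. COL4A1 and COL4A2 are lowest in S2D30 among the SK-N-AS groups and near 0 in GIMEN, COL4A5 and COL4A6 are higher in treated SK-N-AS and high in both GIMEN groups, and COL6A3 (1593 to 1654 CPM in untreated GIMEN) is far lower in every SK-N-AS group.

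Among fibril-associated collagens, COL16A1 encodes a chain that links fibrils and microfibrils to cells. COL16A1 was at 17.2, 24.4, 28.6 and 29.7 CPM in the untreated SK-N-AS libraries, 36.1, 41.5, 41.5 and 38.8 CPM in S1D4, 5.22, 5.21, 6.78 and 16.2 in S2D4, and 15.8, 13.9, 12.9 and 13.1 in S2D30. S1D4 lay above the untreated libraries and S2D4 and S2D30 below them. COL16A1 had log2 fold changes against untreated cells of 0.64 (SE 0.27, adjusted p = 0.0718) in S1D4, -1.59 (SE 0.28, adjusted p = 0.000118) in S2D4, and -0.88 (SE 0.28, adjusted p = 0.00947) in S2D30. The S1D4 difference was called by DESeq2, at 0.66 (adjusted p = 0.0467). In GIMEN, COL16A1 was at 17.5, 18.3 and 18.9 CPM in the untreated libraries and at 3.76, 3.17 and 2.51 CPM after 30 days. COL16A1 fell in GIMEN, -2.55 (SE 0.15, adjusted p = 3.40e-08), with no overlap.

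COL22A1 encodes a collagen of tissue junctions such as that of muscle and tendon. COL22A1 was at 0, 0.131, 0 and 0.0305 CPM in the untreated SK-N-AS libraries, 1.00, 1.51, 0.253 and 0.399 CPM in S1D4, 21.1, 21.9, 22.8 and 1.33 in S2D4, and 24.2, 29.4, 28.5 and 22.1 in S2D30. It passed from at most 3 counts in any untreated library to 22.1 to 29.4 CPM in S2D30. The fitted log2 fold changes depend on the prior count, since untreated cells were at the floor, and were 4.29 (SE 1.31, adjusted p = 0.0156) in S1D4, 8.69 (SE 1.00, adjusted p = 1.15e-06) in S2D4 and 9.33 (SE 0.99, adjusted p = 2.83e-07) in S2D30. The ratios of pooled CPM were 22.8 (8.53 to 85.9), 439 (171 to 1615) and 757 (295 to 2782), with counting intervals in parentheses. Without untreated replicate 2, the only one with 3 counts, the fitted values were 5.63, 10.03 and 10.66, and without untreated replicate 1 the S1D4 call was lost (3.77, adjusted p = 0.0542). S2D4 replicate 4 was far below its group. In GIMEN, COL22A1 was at 0, 0.0491 and 0 CPM in the untreated libraries and at 1.29, 0.762 and 1.35 CPM after 30 days. The single untreated count set the GIMEN ratio at 65.3 (11.2 to 2627). Its fitted value was 5.52 (SE 0.74, adjusted p = 4.14e-05), or 7.27 without untreated replicate 2.

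COL19A1, a minor collagen of basement membrane zones and muscle, had 1 untreated library apart from the rest. COL19A1 was at 15.6, 19.4, 24.7 and 72.1 CPM in the untreated SK-N-AS libraries, 8.44, 8.90, 17.5 and 13.6 CPM in S1D4, 21.9, 25.3, 25.2 and 10.8 in S2D4, and 4.83, 4.5, 4.98 and 4.43 in S2D30. Untreated replicate 4 was the highest library, S1D4 and S2D4 overlapped the untreated range, and S2D30 lay below it. COL19A1 had log2 fold changes against untreated cells of -1.46 (SE 0.40, adjusted p = 0.00802) in S1D4, -0.69 (SE 0.39, adjusted p = 0.133) in S2D4, and -2.84 (SE 0.43, adjusted p = 1.70e-05) in S2D30. Without untreated replicate 4 the S1D4 value was -0.74 (adjusted p = 0.0466) and the S2D30 value -2.11. COL19A1 had 3 to 11 counts per GIMEN library and was not tested there.

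Type IX chains coat cartilage fibrils. COL9A3 was at 7.74, 8.04, 5.06 and 7.17 CPM in the untreated SK-N-AS libraries, 2.05, 3.11, 2.36 and 2.44 CPM in S1D4, 1.44, 0.977, 1.55 and 2.56 in S2D4, and 2.11, 1.33, 1.59 and 2.48 in S2D30. All treated libraries were below the untreated ones. COL9A3 had log2 fold changes against untreated cells of -1.52 (SE 0.27, adjusted p = 0.000263) in S1D4, -2.11 (SE 0.27, adjusted p = 4.46e-06) in S2D4, and -1.93 (SE 0.27, adjusted p = 7.40e-06) in S2D30. In GIMEN, COL9A3 was at 14.2, 12.2 and 11.8 CPM in the untreated libraries and at 16.5, 24.8 and 26.4 CPM after 30 days. COL9A3 rose in GIMEN, 0.79 (SE 0.16, adjusted p = 0.00106). COL9A2 was at 0.569, 1.05, 1.19 and 1.28 CPM in the untreated SK-N-AS libraries, 0.321, 0.565, 0.211 and 0.443 CPM in S1D4, 0.419, 0.0543, 0.0941 and 0.0972 in S2D4, and 0.132, 0.154, 0.0906 and 0.0869 in S2D30. Its treated libraries were also lower, at few counts. COL9A2 had log2 fold changes against untreated cells of -1.42 (SE 0.44, adjusted p = 0.0163) in S1D4, -2.62 (SE 0.49, adjusted p = 0.000200) in S2D4, and -3.12 (SE 0.52, adjusted p = 4.74e-05) in S2D30. S2D30 was at the floor, with a ratio of pooled CPM of 0.117 (0.0548 to 0.224). The S1D4 call was lost without S1D4 replicate 3, at -1.22 (adjusted p = 0.0574), and the S2D4 value was -3.54 without S2D4 replicate 1. In GIMEN, COL9A2 was at 16.6, 15.3 and 15.7 CPM in the untreated libraries and at 12, 13.8 and 10.5 CPM after 30 days. COL9A2 fell there, -0.41 (SE 0.12, adjusted p = 0.00736), so that the type IX genes moved in opposite directions in GIMEN.

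COL9A1 was at 1.26, 1.09, 1.48 and 1.31 CPM in the untreated SK-N-AS libraries, 0.121, 0.330, 0.0422 and 0.0887 CPM in S1D4, 0, 0.0543, 0.141 and 0.130 in S2D4, and 1.27, 1.13, 0.951 and 1.52 in S2D30. S1D4 and S2D4 lay below the untreated libraries, and S2D30 overlapped them. COL9A1 had log2 fold changes against untreated cells of -3.16 (SE 0.48, adjusted p = 7.11e-05) in S1D4, -3.87 (SE 0.51, adjusted p = 5.90e-06) in S2D4, and -0.11 (SE 0.38, adjusted p = 0.804) in S2D30. Without S1D4 replicate 2 the S1D4 value was -3.88 (adjusted p = 3.44e-05). COL14A1, a fibril-associated gene of dense connective tissue, was at 4.35, 3.80, 3.91 and 5.71 CPM in the untreated SK-N-AS libraries, 0.884, 1.08, 0.338 and 0.177 CPM in S1D4, 0.792, 0.163, 0.753 and 0.0648 in S2D4, and 4.43, 3.38, 3.44 and 5.95 in S2D30. It had the same course, with S1D4 and S2D4 below the untreated libraries and S2D30 overlapping them. COL14A1 had log2 fold changes against untreated cells of -2.86 (SE 0.52, adjusted p = 0.000396) in S1D4, -3.39 (SE 0.55, adjusted p = 4.86e-05) in S2D4, and -0.08 (SE 0.45, adjusted p = 0.881) in S2D30. In GIMEN, COL14A1 was at 1.81, 1.38 and 1.19 CPM in the untreated libraries and at 2.0, 3.05 and 3.08 CPM after 30 days. A rise was called in GIMEN, 0.86 (SE 0.29, adjusted p = 0.0184), and lost without any 1 of 4 libraries: 0.77 (adjusted p = 0.0623) without D30 replicate 2, 0.75 (adjusted p = 0.0620) without D30 replicate 3, 0.81 (adjusted p = 0.0632) without untreated replicate 2 and 0.73 (adjusted p = 0.0730) without untreated replicate 3.

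COL12A1 encodes a long chain that sits on type I fibrils. COL12A1 was at 0.940, 0.831, 0.811 and 0.916 CPM in the untreated SK-N-AS libraries, 0.0804, 0.188, 0.253 and 0.443 CPM in S1D4, 0.466, 0.217, 0.282 and 0.389 in S2D4, and 0.526, 0.512, 0.408 and 0.739 in S2D30. S1D4 and S2D4 were below the untreated libraries, and so was S2D30. COL12A1 had log2 fold changes against untreated cells of -1.88 (SE 0.38, adjusted p = 0.00101) in S1D4, -1.38 (SE 0.37, adjusted p = 0.00366) in S2D4, and -0.71 (SE 0.35, adjusted p = 0.0799) in S2D30. In GIMEN, COL12A1 was at 12.7, 8.74 and 12.4 CPM in the untreated libraries and at 15.2, 15.7 and 19.2 CPM after 30 days. Its rise in GIMEN was 0.54 (SE 0.15, adjusted p = 0.00835), and it missed the threshold once trends with GC content and transcript length were taken out (0.33, adjusted p = 0.0647).

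COL7A1 encodes the anchoring fibril of skin. COL7A1 was at 3.68, 7.04, 6.73 and 8.52 CPM in the untreated SK-N-AS libraries, 19.9, 33.1, 23.4 and 24.5 CPM in S1D4, 12.9, 14.3, 16.6 and 17.9 in S2D4, and 23.1, 19.0, 20.7 and 21.5 in S2D30. All treated libraries were above all untreated ones. COL7A1 had log2 fold changes against untreated cells of 1.94 (SE 0.21, adjusted p = 2.88e-06) in S1D4, 1.22 (SE 0.21, adjusted p = 7.44e-05) in S2D4, and 1.67 (SE 0.21, adjusted p = 1.87e-06) in S2D30. In GIMEN, COL7A1 was at 14.4, 17.2 and 13.9 CPM in the untreated libraries and at 12.6, 14.5 and 19.5 CPM after 30 days. The GIMEN groups overlapped, and no change was called (adjusted p = 0.990). Of the transmembrane genes, COL25A1 is best known from brain, where its product binds amyloid deposits. COL25A1 was at 7.69, 10.5, 6.30 and 12.4 CPM in the untreated SK-N-AS libraries, 27.5, 30.6, 34.7 and 33.9 CPM in S1D4, 26.5, 29.8, 26.6 and 18.6 in S2D4, and 17.0, 22.4, 19.3 and 15.9 in S2D30. Its treated libraries were likewise all higher. COL25A1 had log2 fold changes against untreated cells of 1.75 (SE 0.19, adjusted p = 3.18e-06) in S1D4, 1.42 (SE 0.19, adjusted p = 6.37e-06) in S2D4, and 0.98 (SE 0.19, adjusted p = 0.000215) in S2D30. COL25A1 had no count in untreated GIMEN and 0 to 2 counts per library after 30 days.

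COL13A1, a transmembrane collagen of the neuromuscular junction, behaved differently. COL13A1 was at 1.34, 1.18, 0.477 and 0.580 CPM in the untreated SK-N-AS libraries, 0.522, 0.330, 0.844 and 0.931 CPM in S1D4, 1.26, 1.30, 1.79 and 0.583 in S2D4, and 3.77, 3.48, 2.85 and 3.74 in S2D30. S1D4 and S2D4 overlapped untreated cells and S2D30 lay above them. COL13A1 had log2 fold changes against untreated cells of -0.48 (SE 0.41, adjusted p = 0.370) in S1D4, 0.39 (SE 0.39, adjusted p = 0.394) in S2D4, and 1.89 (SE 0.38, adjusted p = 0.000288) in S2D30. In GIMEN, COL13A1 was at 71.7, 77.7 and 72.6 CPM in the untreated libraries and at 54.6, 47.1 and 44.5 CPM after 30 days. In GIMEN it fell, -0.63 (SE 0.08, adjusted p = 2.12e-05), from a level far above that of SK-N-AS.

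COL18A1 is a multiplexin of basement membranes whose C-terminal fragment is endostatin. COL18A1 was at 136, 157, 121 and 127 CPM in the untreated SK-N-AS libraries, 196, 215, 261 and 259 CPM in S1D4, 296, 346, 359 and 414 in S2D4, and 106, 133, 124 and 96.8 in S2D30. S1D4 and S2D4 lay above the untreated libraries and S2D30 overlapped them. COL18A1 had log2 fold changes against untreated cells of 0.75 (SE 0.13, adjusted p = 0.000244) in S1D4, 1.35 (SE 0.13, adjusted p = 1.78e-07) in S2D4, and -0.27 (SE 0.13, adjusted p = 0.0702) in S2D30. Without S2D30 replicate 2 the S2D30 value was called, at -0.35 (adjusted p = 0.0362). In GIMEN, COL18A1 was at 120.3, 124 and 118 CPM in the untreated libraries and at 162, 160.5 and 142 CPM after 30 days. The rise in GIMEN was 0.33 (SE 0.06, adjusted p = 0.000620), and 0.01 (adjusted p = 0.860) after removal of GC content and length trends. Exons of SLC19A1 cover 16.4% of the COL18A1 exons on the opposite strand, and use of strand in the counting is not given in the sources used here, so reads of both cannot be told apart there.

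COL26A1 encodes a secreted collagen-like protein first described in testis and ovary. COL26A1 was at 22.6, 22.6, 22.3 and 21.2 CPM in the untreated SK-N-AS libraries, 31.1, 29.8, 54.4 and 51.7 CPM in S1D4, 2.0, 1.41, 1.41 and 10.2 in S2D4, and 0.351, 0.461, 0.408 and 0.521 in S2D30. S1D4 lay above the untreated libraries, S2D4 below, and S2D30 lower still. COL26A1 had log2 fold changes against untreated cells of 0.89 (SE 0.43, adjusted p = 0.110) in S1D4, -2.53 (SE 0.46, adjusted p = 0.000165) in S2D4, and -5.69 (SE 0.61, adjusted p = 3.00e-07) in S2D30. Without S2D4 replicate 4, the high library of its group, the S2D4 value was -3.81 (adjusted p = 6.61e-10). GIMEN had no count of COL26A1 untreated and 1 count in 1 library after 30 days.

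**Figure D4:**
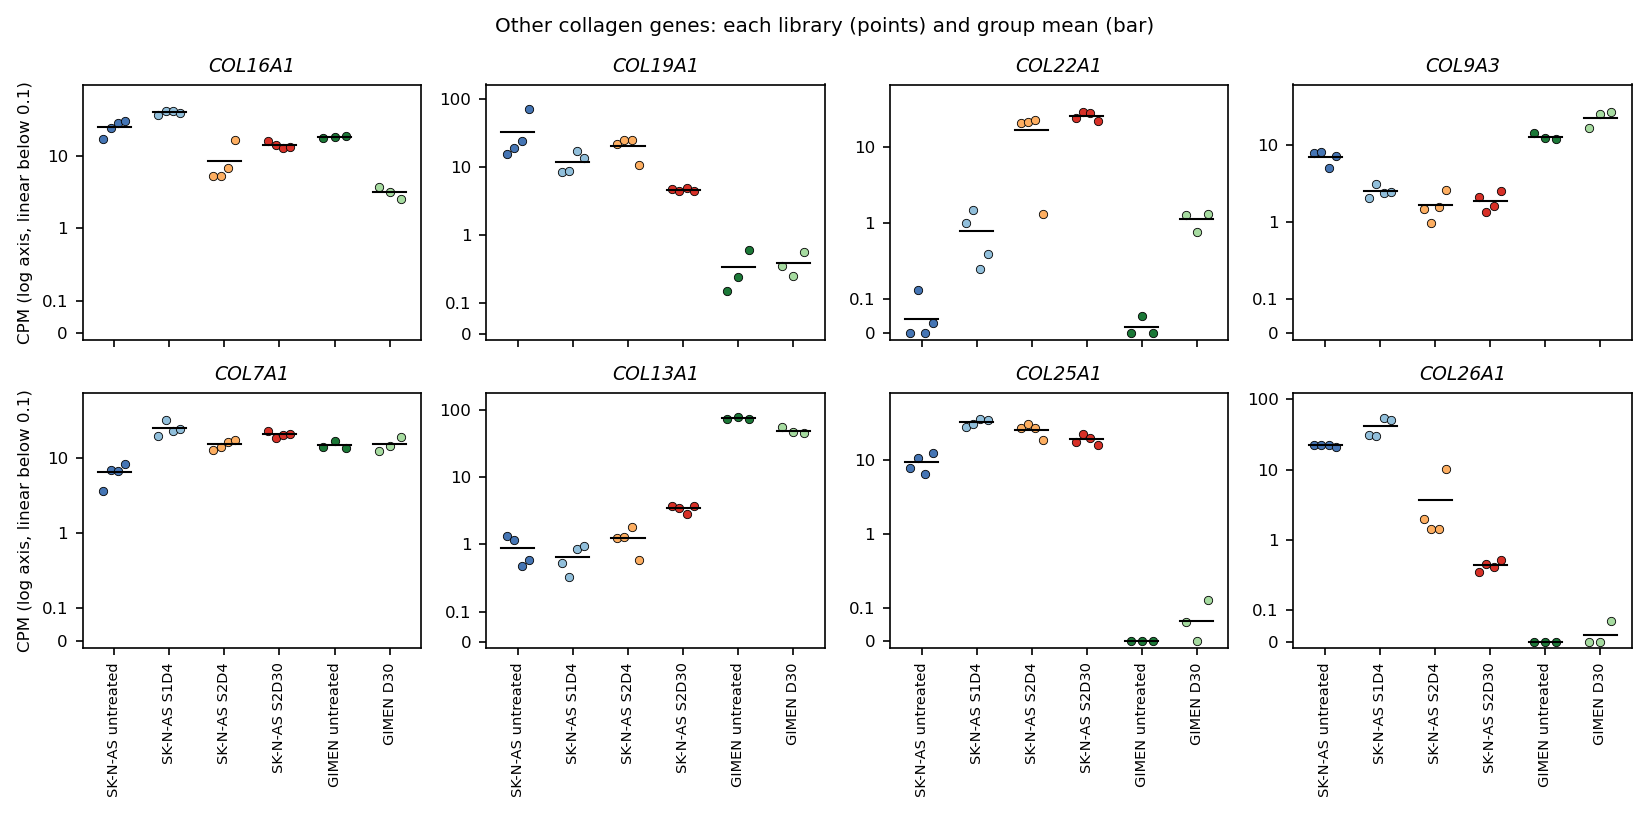
CPM of 8 collagen genes of other types in each library (points) and the group mean (bar), on a log axis that is linear below 0.1. COL22A1 is near 0 in untreated cells and at 22.1 to 29.4 CPM in S2D30, COL26A1 goes from 21.2 to 22.6 CPM untreated to 0.351 to 0.521 in S2D30, and 1 S2D4 library lies apart in COL16A1, COL22A1 and COL26A1.

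The other members stayed below 10 CPM in mean in every group. COL8A1, a short-chain network collagen, rose in S1D4, 1.42 (SE 0.35, adjusted p = 0.00374), and was not called in S2D4 or S2D30. COL8A2 fell in all treated SK-N-AS groups, -1.02 (SE 0.37, adjusted p = 0.0357) in S1D4, -3.27 (SE 0.46, adjusted p = 1.04e-05) in S2D4 and -2.82 (SE 0.44, adjusted p = 2.23e-05) in S2D30. The S1D4 fall of COL8A2 was lost without any 1 of 5 libraries, namely S1D4 replicates 1, 2 and 3 (-1.10, -0.88 and -0.92) and untreated replicates 3 and 4 (-0.97 and -0.82), and the S2D4 value was -4.03 without S2D4 replicate 1. COL15A1, the other multiplexin, rose in GIMEN, 2.23 (SE 0.38, adjusted p = 0.000274), with 0.619, 0.442 and 0.452 CPM untreated and 1.64, 2.22 and 3.47 CPM after 30 days. In S2D30 it was not called, 0.61 (SE 0.43, adjusted p = 0.216), but was without untreated replicate 4 (1.04, adjusted p = 0.0496). COL28A1, a chain with von Willebrand factor domains, rose in S2D30, 1.79 (SE 0.52, adjusted p = 0.00596), and fell in GIMEN, -0.66 (SE 0.23, adjusted p = 0.0217). The GIMEN fall of COL28A1 was lost without D30 replicate 2 (-0.51, adjusted p = 0.0704) or untreated replicate 3 (-0.63, adjusted p = 0.0681). COL4A3 and COL4A4, the remaining type IV pair, had at most 0.665 and 0.612 CPM in any library. COL10A1, COL17A1, COL20A1, COL21A1 and COL23A1 had at most 0.737, 0.762, 0.336, 0.589 and 0.0954 CPM and were not tested.

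S2D4 cells differ from S1D4 cells by bufalin, Neurobasal with B27 and 4 more days. All 4 tested type IV genes rose between them. The changes were 0.94 (SE 0.16, adjusted p = 0.000141) for COL4A1, 0.96 (SE 0.15, adjusted p = 3.60e-05) for COL4A2, 0.95 (SE 0.20, adjusted p = 0.000677) for COL4A5 and 2.06 (SE 0.43, adjusted p = 0.000742) for COL4A6. COL5A1, COL6A3, COL5A3 and COL18A1 rose too, by 0.88, 1.19, 1.66 and 0.59 on the log2 scale. COL1A2, COL7A1, COL16A1 and COL8A2 fell, by 1.91, 0.72, 2.23 and 2.25, and the COL8A2 value was -3.00 without S2D4 replicate 1. COL3A1, COL5A2 and COL11A2 also fell, by 0.76, 1.83 and 1.36. The largest called changes were the rise of COL22A1, 4.40 (SE 0.68, adjusted p = 4.34e-05), and the falls of COL6A6, -4.87 (SE 0.54, adjusted p = 1.48e-06), and COL26A1, -3.42 (SE 0.48, adjusted p = 1.55e-05). S2D4 was at the floor for COL6A6, where the ratio of pooled CPM was 0.0324 (0.0138 to 0.0648). Without S2D4 replicate 4, COL26A1 was at -4.70 (adjusted p = 1.30e-10). In S2D4 replicate 4, COL4A6 and COL22A1 lay in the S1D4 range or near it, and the groups overlapped for both.

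COL1A1 overlapped between S1D4 and S2D4, 0.03 (SE 0.17, adjusted p = 0.908), and without S2D4 replicate 4 it was lower in S2D4, -0.27 (adjusted p = 0.0205). Further calls appeared without that library: COL27A1 at -0.80 (adjusted p = 0.0379), COL9A3 at -0.90 (adjusted p = 0.00738), COL13A1 at 1.13 (adjusted p = 0.0185) and COL19A1 at 0.99 (adjusted p = 0.0399). A term that sets replicates 3 and 4 of the untreated and S1D4 groups apart gave calls for COL19A1, 1.41 (adjusted p = 0.00195), where 0.77 was not called without it, and for COL8A1 and COL28A1, -1.01 (adjusted p = 0.0259) and -1.44 (adjusted p = 0.0411), against uncalled -0.80 and -1.01. COL6A2, 0.32 (SE 0.13, adjusted p = 0.0572), was called without S1D4 replicate 3 (0.39, adjusted p = 0.0347), S1D4 replicate 4 (0.37, adjusted p = 0.0494) or S2D4 replicate 1 (0.39, adjusted p = 0.0322). COL9A2, -1.20 (SE 0.53, adjusted p = 0.0663), was called without S2D4 replicate 1, at -2.12 (adjusted p = 0.00317), and without S1D4 replicate 3, at -1.40 (adjusted p = 0.0444).

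From S2D4 to S2D30, at the same doses and in the same medium, COL3A1 fell furthest, -3.60 (SE 0.13, adjusted p = 1.07e-11), followed by COL26A1, -3.16 (SE 0.63, adjusted p = 0.000502). Without S2D4 replicate 4 the fall of COL26A1 was -1.89 (adjusted p = 0.000205). COL4A2, -2.68 (SE 0.15, adjusted p = 9.89e-10), and COL4A1, -2.33 (SE 0.17, adjusted p = 1.56e-08), fell together, and COL4A5 fell less, -0.66 (SE 0.20, adjusted p = 0.00952). COL4A6 rose, 1.28 (SE 0.40, adjusted p = 0.0142), or 0.92 (adjusted p = 0.00140) without S2D4 replicate 4. The 3 tested type VI genes other than COL6A6 all fell, -0.50 (SE 0.10, adjusted p = 0.000731) for COL6A1, -0.65 (SE 0.14, adjusted p = 0.000756) for COL6A2 and -1.59 (SE 0.29, adjusted p = 0.000212) for COL6A3. COL18A1 and COL19A1 fell as well, -1.62 (SE 0.13, adjusted p = 5.09e-08) and -2.15 (SE 0.42, adjusted p = 0.000477).

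The largest rises of this step were those of COL9A1, 3.75 (SE 0.52, adjusted p = 1.57e-05), and COL14A1, 3.31 (SE 0.55, adjusted p = 0.00010). COL5A2, COL5A3, COL11A2 and COL27A1 also rose, by 1.09, 1.63, 1.48 and 1.11 on the log2 scale, while COL1A1, COL3A1 and COL5A1 fell. COL13A1 and COL28A1 rose by 1.5 and 2.41. COL16A1 rose by 0.71 (adjusted p = 0.0439), with overlapping groups, and that call was lost without any 1 of the 4 S2D30 libraries or of S2D4 replicates 1, 2 and 3 (0.54 to 0.75). COL25A1 and COL7A1 missed the threshold, at -0.44 (SE 0.19, adjusted p = 0.0554) and 0.45 (SE 0.20, adjusted p = 0.0726). Without S2D4 replicate 4 both were called, COL25A1 at -0.57 (adjusted p = 0.00991) and COL7A1 at 0.52 (adjusted p = 0.0451), and COL25A1 also without S2D30 replicate 2, at -0.54 (adjusted p = 0.0356).

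Untreated GIMEN and untreated SK-N-AS differed in most collagen genes. Of 34 tested, 16 were higher and 12 lower in GIMEN, where 35.3% of all tested genes were higher and 38.6% lower, and the median was 0.17 (all genes -0.05). The type I, V and VI genes among those higher in GIMEN included COL1A2, higher by 9.79 (SE 0.28, adjusted p = 7.41e-15), COL6A3 by 7.19 (SE 0.22, adjusted p = 2.79e-14), COL5A2 by 6.61 (SE 0.12, adjusted p = 3.32e-17) and COL1A1 by 4.06 (SE 0.11, adjusted p = 8.00e-15). Among collagens higher in GIMEN, the second largest called difference was that of the type IV gene COL4A6, 7.83 (SE 0.20, adjusted p = 3.40e-15). COL13A1 was higher by 6.32 (SE 0.21, adjusted p = 5.08e-14). No untreated SK-N-AS library reached the lowest GIMEN library in any of these 6 genes. They were picked for large called differences between these same libraries, so the lack of overlap adds no support.

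In the other direction, COL26A1 and COL25A1 had no counts in untreated GIMEN and were at least 141-fold and at least 58.7-fold lower there, against a floor of 3 counts per library. COL9A1 was at least 8.18-fold lower by the same floor. COL6A6 had 2 counts in 1 untreated GIMEN library, a ratio of pooled CPM of 0.00705 (0.000852 to 0.0256). COL19A1 was lower, -6.58 (SE 0.61, adjusted p = 3.89e-08), or -5.88 without SK-N-AS untreated replicate 4. COL6A1, -0.87 (SE 0.09, adjusted p = 1.43e-07), and COL6A2, -2.07 (SE 0.11, adjusted p = 2.94e-11), were also lower in GIMEN. The COL6A1 difference was -0.02 (adjusted p = 0.781) after removal of GC content and length trends.

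COL16A1 and COL11A2 were called lower in GIMEN with overlapping groups, at -0.43 (SE 0.15, adjusted p = 0.0188) and -0.78 (SE 0.31, adjusted p = 0.0308). Both changed sign after removal of GC content and length trends, to 0.31 (adjusted p = 0.0360) and 0.01 (adjusted p = 0.967). The COL16A1 call was lost without GIMEN untreated replicate 1 (-0.38, adjusted p = 0.0756) or 2 (-0.42, adjusted p = 0.0554) or SK-N-AS untreated replicate 3 (-0.36, adjusted p = 0.0564), and the COL11A2 call without GIMEN untreated replicate 2 (-0.80, adjusted p = 0.0670) or 3 (-0.62, adjusted p = 0.129) or SK-N-AS untreated replicate 2 (-0.76, adjusted p = 0.0552) or 4 (-0.50, adjusted p = 0.123). COL18A1 was not called, -0.15 (SE 0.11, adjusted p = 0.213), but was 1.02 (adjusted p = 1.29e-06) after that removal.

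The 30-day change was compared between the lines by an interaction term, GIMEN minus SK-N-AS. Doses, serum, medium and the preceding stage differed between the lines, and these cannot be told apart from the line. The difference was positive for 16 and negative for 11 of 34 tested collagens, where 25.2% and 24.5% of all genes were called, and its median was 0.76 (all genes 0.02). For COL27A1 the difference was 2.36 (SE 0.26, adjusted p = 1.04e-06), from a rise in GIMEN and an uncalled change in SK-N-AS. COL9A3 gave 2.74 (SE 0.30, adjusted p = 1.20e-06), with opposite called changes in the lines. COL6A2 gave -2.10 (SE 0.15, adjusted p = 7.71e-09), again with opposite called changes, and COL13A1 gave -2.47 (SE 0.28, adjusted p = 1.93e-06) in the same manner. COL4A6 gave -5.99 (SE 0.25, adjusted p = 2.03e-11) and COL4A5 -1.28 (SE 0.19, adjusted p = 2.76e-05), where the rise was called in SK-N-AS.

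Some fibrillar genes fell in both lines by different amounts. COL5A1 and COL5A2 fell further in GIMEN, with differences of -1.40 (SE 0.20, adjusted p = 2.03e-05) and -2.14 (SE 0.17, adjusted p = 2.26e-08), and COL3A1 fell further in SK-N-AS, 1.05 (SE 0.30, adjusted p = 0.00711). COL1A1 gave 0.47 (SE 0.15, adjusted p = 0.0176), a call lost without D30 replicate 3 (0.33, adjusted p = 0.0508), with a model of all 22 libraries (0.44, adjusted p = 0.155) or after removal of GC content and length trends (0.20, adjusted p = 0.335). COL1A2 was not called, 0.74 (SE 0.52, adjusted p = 0.254). COL6A3, 0.79 (SE 0.34, adjusted p = 0.0619), was called without SK-N-AS untreated replicate 3 (0.96, adjusted p = 0.00697) or 4 (0.86, adjusted p = 0.0385) or S2D30 replicate 4 (0.97, adjusted p = 0.0419). COL16A1 gave -1.67 (SE 0.24, adjusted p = 2.56e-05) and COL7A1 -1.66 (SE 0.29, adjusted p = 0.000147).

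Differences for genes near the floor in GIMEN depend on the prior count. These were COL4A2 (4.00, SE 1.19, adjusted p = 0.0104), COL6A6 (6.79, SE 1.57, adjusted p = 0.00181), COL9A1 (4.87, SE 1.22, adjusted p = 0.00394), COL19A1 (3.06, SE 1.20, adjusted p = 0.0440) and COL26A1 (7.94, SE 2.07, adjusted p = 0.0106). COL4A2 lost its call without D30 replicate 1 (3.63, adjusted p = 0.0614) and was 6.87 without GIMEN untreated replicate 2. COL26A1 lost it without D30 replicate 3, at 5.67, and with all 22 libraries (7.89, adjusted p = 0.299). COL6A6 was 6.07 without D30 replicate 2 and 9.67 without GIMEN untreated replicate 3, and COL9A1 was 4.26 without D30 replicate 2. COL19A1 lost its call without any 1 of the 3 D30 libraries, of GIMEN untreated replicates 1 and 2 or of the 4 S2D30 libraries (2.70 to 3.28), and was 2.36 (adjusted p = 0.00208) without SK-N-AS untreated replicate 4 and 3.76 (adjusted p = 0.0335) without GIMEN untreated replicate 3. COL14A1, 0.96 (SE 0.37, adjusted p = 0.0409), was not at the floor but lost its call without any 1 of 9 libraries (0.82 to 0.97), namely all but D30 replicate 1, GIMEN untreated replicate 1, S2D30 replicate 4 and SK-N-AS untreated replicates 2 and 3. COL15A1, 1.65 (SE 0.59, adjusted p = 0.0299), lost its call without SK-N-AS untreated replicate 4 (1.24), S2D30 replicate 2 (1.49), GIMEN untreated replicates 2 or 3 (1.55 and 1.56) or D30 replicate 3 (1.30). COL4A1 was not called, 2.95 (SE 1.27, adjusted p = 0.0643), but was by DESeq2 (3.07, adjusted p = 0.0310), with no filter on low counts (2.95, adjusted p = 0.0428), without D30 replicate 3 (3.48, adjusted p = 0.0281) and without SK-N-AS untreated replicate 3 (3.10, adjusted p = 0.0150).

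**Figure D5:**
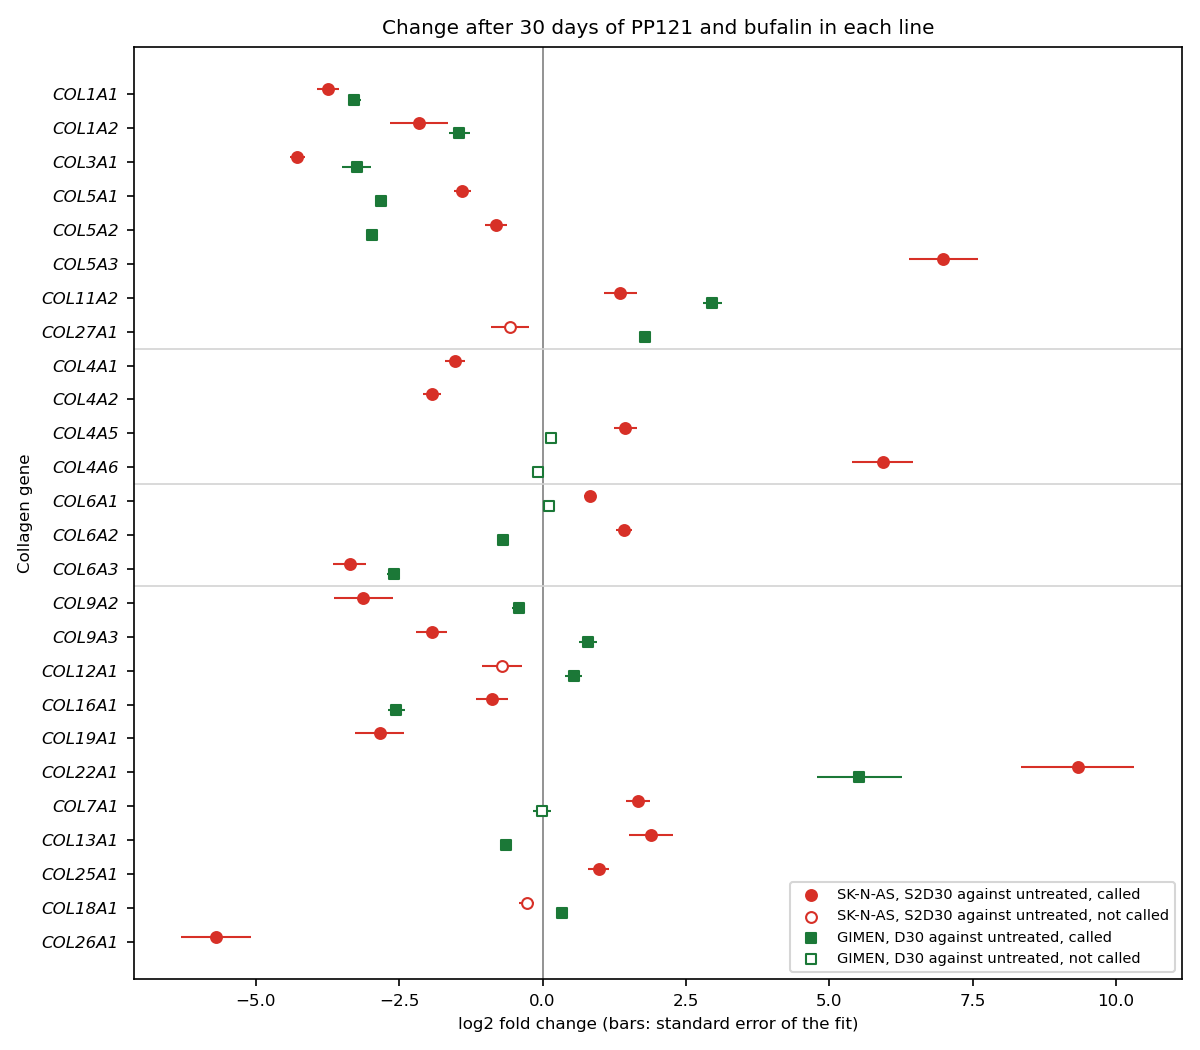
Log2 fold change after 30 days in SK-N-AS (S2D30, circles) and GIMEN (D30, squares) against untreated cells of the line, with the standard error of the fit as bars and filled marks for called genes. Only the 26 genes with a mean of at least 10 CPM in some group are drawn, those not tested in GIMEN have a circle alone, and the fitted values of COL22A1 (9.33 and 5.52) and of COL9A2 in SK-N-AS (-3.12) rest on a group at the floor and depend on the prior count. COL1A1, COL1A2, COL3A1, COL5A1, COL5A2, COL6A3, COL9A2 and COL16A1 lie left of 0 in both lines.

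Levels of different genes can be set side by side per length of transcript, as CPM per kilobase. In untreated SK-N-AS the highest were COL3A1 at 179 ± 22 (SD, n = 4), COL6A2 at 109.9 ± 13.7, COL1A1 at 81.9 ± 3.33 and COL6A1 at 59.9 ± 5.00. In S2D30 COL6A2 was at 303 ± 7.34 and COL6A1 at 109 ± 4.99, followed by COL18A1 at 19.4 ± 2.76. Untreated GIMEN had COL1A1 at 1347 ± 16.9 (SD, n = 3), COL3A1 at 274 ± 9.80, COL1A2 at 225 ± 3.29 and COL6A3 at 151 ± 2.84. After 30 days GIMEN had COL1A1 at 141 ± 20.4 and COL1A2 at 83.8 ± 27.4, which is a smaller gap between them than before.

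Ratios of chains that share a protein, per kilobase and within each library, differed widely between lines and groups. The ratio of COL1A1 to COL1A2 ranged over 291 to 368 among untreated SK-N-AS libraries and 35.1 to 45.0 among those of S1D4. It was 80.5 to 610 in S2D4 and 57.0 to 820 in S2D30, where COL1A2 had as few as 6 and 1 counts in a library, so those ratios are loose. In GIMEN it ranged over 5.82 to 6.14 before treatment and 1.47 to 2.19 after it. COL4A2 to COL4A1 kept to 1.69 to 2.13 untreated, 1.58 to 2.27 in S1D4, 1.32 to 2.23 in S2D4 and 1.33 to 1.59 in S2D30. COL4A5 to COL4A6 went from 26 to 115 untreated to 1.87 to 2.2 in S2D30, and was 0.929 to 0.969 in untreated GIMEN. The ratio of the first head-to-head pair thus stayed between 1.32 and 2.27 in SK-N-AS, though every S2D30 library lay below every untreated one. That of the second pair changed far more. The ratio of COL6A2 to COL6A3 ranged over 88.7 to 185 among untreated SK-N-AS libraries, 2123 to 3936 among those of S2D30 and 0.163 to 0.183 among untreated GIMEN libraries, so that COL6A3 was scarce beside COL6A2 in SK-N-AS and in excess in GIMEN. COL6A2 to COL6A1 lay between 0.417 and 3.38 in all groups. Without treatment, COL5A1 to COL5A2 was 0.909 to 0.922 for GIMEN and 29.8 to 39.7 for SK-N-AS. These ratios are descriptions without a test.

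Genes that act on collagen were read beside the members. Of 20 genes for folding and modification in the endoplasmic reticulum, 19 were tested in SK-N-AS. In S1D4, 2 rose and 2 fell, where 17.6% of all genes were called higher and 22.4% lower. The S1D4 rises were 4 with upper-quartile factors or only the 2 groups compared. The S1D4 falls were 1 with only those groups or without any 1 of untreated replicates 1, 3 and 4 and of the 4 S1D4 libraries, and 4 after removal of GC content and length trends. In S2D30, 8 rose and 7 fell (median 0.29, all genes -0.03), shares near the 33.8% and 36.5% of all genes. P4HA2, a subunit of the proline hydroxylase that stabilizes the helix, had the largest rise, from 13.6 ± 1.31 to 43.7 ± 2.29 CPM, a change of 1.65 (SE 0.18, adjusted p = 2.95e-07). COLGALT2, which adds galactose to collagen, had the largest fall, from 1.71 ± 0.177 to 0.0662 ± 0.104 CPM, a change of -4.58 (SE 0.54, adjusted p = 1.06e-06), or -6.41 without S2D30 replicate 1. In S2D4 10 rose and 4 fell, where 30.9% and 32.2% of all genes were called, led by PLOD3, a lysine hydroxylase, at 0.91 (SE 0.07, adjusted p = 1.20e-08), and by CREB3L1, a membrane-bound transcription factor, at -2.51 (SE 0.39, adjusted p = 3.04e-05). In GIMEN D30, 8 of 20 rose and 9 fell (median -0.10, all genes 0.02), where 35.5% and 36.0% of all genes were called. The number of rises in GIMEN was 5 without untreated replicate 1 or 2. SERPINH1, the collagen chaperone HSP47, fell from 265 ± 4.98 to 134 ± 15.9 CPM, a change of -1.01 (SE 0.08, adjusted p = 4.76e-07). P4HA3 had the largest rise there, 1.13 (SE 0.35, adjusted p = 0.0135), and lost its call without D30 replicate 2 (0.91, adjusted p = 0.0661), untreated replicate 1 (1.06, adjusted p = 0.0523) or untreated replicate 2 (0.91, adjusted p = 0.0705).

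Of 12 genes for cleavage of propeptides and crosslinking of fibrils, 11 were tested in SK-N-AS and 7 in GIMEN. In S1D4 2 rose and 3 fell, where 17.6% of all genes were called higher and 22.4% lower. In S2D4 1 rose and 7 fell, where 30.9% of all genes were called higher and 32.2% lower. The S1D4 rises were 1 after removal of GC content and length trends or without any 1 of untreated replicates 1, 3 and 4 and S1D4 replicates 2, 3 and 4, and the S1D4 falls were 5 after that removal or without untreated replicate 4. The single S2D4 rise was lost without untreated replicate 1, 3 or 4 or with only the 2 groups compared, and there were 2 rises without untreated replicate 2 or S2D4 replicate 2 or after removal of the trends. In S2D30 none rose and 8 fell (median -1.42, all genes -0.03), and in GIMEN D30 none rose and 6 fell (median -1.15, all genes 0.02). Over all genes 33.8% and 35.5% were called higher and 36.5% and 36.0% lower in these groups. No member rose in either by edgeR's unadjusted p under 0.05 or by DESeq2. Without D30 replicate 1 there was 1 rise in GIMEN. TLL1, a procollagen proteinase, fell most in S2D30, from 1.11 ± 0.268 to 0.0551 ± 0.0551 CPM, at few counts: S2D30 was at the floor, and the ratio of pooled CPM was 0.0489 (0.0156 to 0.117). LOX, the lysyl oxidase that crosslinks fibrils, fell most in GIMEN, from 203 ± 6.39 to 15.7 ± 7.91 CPM, a change of -3.71 (SE 0.22, adjusted p = 5.50e-08). In SK-N-AS, LOX had means of 1.39 CPM untreated and 0.717 in S2D30. That change was not called, -0.98 (adjusted p = 0.0592). It was called without untreated replicate 4, at -1.28 (adjusted p = 0.00612), and after removal of GC content and length trends, at -1.10 (adjusted p = 0.0438).

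Of 10 collagen receptors, 9 were tested in SK-N-AS and 8 in GIMEN. In S1D4 2 rose and 1 fell, where 17.6% of all genes were called higher and 22.4% lower, and in S2D4 3 rose and 3 fell, where the shares were 30.9% and 32.2%. The S1D4 fall was lost without any 1 of untreated replicates 2, 3 and 4 and S1D4 replicates 1 and 2. In S2D30, 6 rose and 2 fell (median 1.22, all genes -0.03), where 33.8% of all genes were called higher and 36.5% lower. ITGA2, the alpha chain of the type I collagen integrin of platelets and epithelia, went from 15.4 ± 4.20 to 360.0 ± 28.6 CPM, 4.51 (SE 0.23, adjusted p = 3.74e-11). MRC2, an endocytic collagen receptor, fell from 269 ± 26.5 to 62.3 ± 0.789 CPM, -2.15 (SE 0.37, adjusted p = 7.32e-05). In GIMEN, 5 rose and 1 fell (median 0.79, all genes 0.02), where 35.5% and 36.0% of all genes were called, with ITGA10, a chondrocyte collagen integrin chain, going from 252 ± 8.75 to 1562 ± 350.0 CPM, 2.61 (SE 0.14, adjusted p = 2.64e-08). ITGB1, the shared beta chain, fell from 2615 ± 23.2 to 1699 ± 128 CPM, -0.65 (SE 0.07, adjusted p = 9.89e-06). ITGA2 in SK-N-AS and ITGA10 in GIMEN were the receptors with the largest called rise.

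Of 8 small proteoglycans that bind fibrils, 4 were tested in SK-N-AS and 3 in GIMEN, and none rose in S2D30 or in GIMEN D30, where 2 and 3 fell. No member rose there by edgeR's unadjusted p under 0.05 or by DESeq2, and the medians were -1.39 and -2.43. Over all genes 33.8% and 35.5% were called higher and 36.5% and 36.0% lower. In S1D4 2 fell and in S2D4 3, with no rise. Over all genes 17.6% were called higher and 22.4% lower in S1D4, and 30.9% and 32.2% in S2D4. DCN, decorin, fell most in both lines, from 40.7 ± 15.2 to 2.50 ± 0.266 CPM in SK-N-AS, -4.06 (SE 0.36, adjusted p = 2.87e-08), and from 12.3 ± 1.69 to 0.354 ± 0.201 CPM in GIMEN, -5.13 (SE 0.28, adjusted p = 2.26e-08). COL1A1 and COL3A1 were also lower than untreated in S2D30 and in GIMEN D30, but DCN and COL3A1 had different courses in SK-N-AS. DCN was the largest fall of this list in S1D4, where the change of COL3A1 was not called. From S2D4 to S2D30 the mean of COL3A1 went from 637 to 52.6 CPM, and that of DCN from 2.07 to 2.50 CPM. A link between DCN and these collagens was not tested.

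Between the untreated lines, 17 of 20 folding and modification genes were higher in GIMEN and none lower (median 1.26, all genes -0.05), where 35.3% of all genes were higher and 38.6% lower. None was lower by edgeR's unadjusted p under 0.05 or by the DESeq2 test, and 1 was with DESeq2 size factors, with upper-quartile factors, after removal of GC content and length trends, or without SK-N-AS untreated replicate 1. CREB3L1 was higher by 7.23 (SE 0.13, adjusted p = 3.16e-17), and LOX, among 4 higher and 7 lower crosslinking and cleavage genes, by 7.22 (SE 0.33, adjusted p = 3.71e-12). GIMEN was thus the line with more of the fibrillar collagens and with more LOX.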

How the data were processed

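RNA-seq was measured in 22 libraries of 2 cell lines in 6 groups, 4 for each SK-N-AS group and 3 for each GIMEN group. The authors deposited raw counts per gene symbol for all libraries in 1 table; its values are whole numbers, and the aligner, counter, genome build, annotation and use of strand are not given in the sources used here. Groups follow the sample titles. Counts were tested with edgeR 4.0.16 (R 4.3.3; TMM scaling, filterByExpr with a minimum count of 10 and a minimum total of 15, quasi-likelihood F test), with Benjamini-Hochberg adjustment over all tested genes and a threshold of 0.05; every adjusted p in the text is from this test unless another is named. SK-N-AS (16 libraries), GIMEN (6) and both lines together (14, untreated and 30-day) were fitted as separate models of 15810, 13517 and 16246 genes, so a test's scaling differs slightly from that of the printed CPM. The standard error is the fold change over the square root of F. Simulated counts with 200 changed genes were used to test the scripts.

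The members and gene lists were chosen with earlier results of these data known. Library values are given for members with a mean of at least 10 CPM in some group, and for the 2 largest called rises and falls of each comparison among members with a mean of at least 1 CPM; COL8A1, COL8A2, COL11A1, COL15A1 and COL28A1 were named after their values were seen. Alternatives were DESeq2 1.42.0 and its size factors, upper-quartile factors, other filters, the replicate number as a block, a term for replicates 3 and 4 of the untreated and S1D4 groups, only the compared groups, all 22 libraries, and each library left out. Removal of GC content and length trends was added after the data were seen. Ratios and floors of 3 counts cover counting error only (95% intervals). Transcript lengths are those of GENCODE v29. No column of the table was left out.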

Additional observations from a re-analysis of the deposited data

Results flagged for a closer look

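The 116 groups of 4 libraries (29 collagen genes in 4 SK-N-AS groups) were examined, save those with at most 3 counts in every library. In 9 of them, a library had a gap to the nearest other of over 82.9% of the range of the group. For independent values with a normal spread, chance gives about 1 such group in 20, and genes read in the same libraries are not independent. Of the 9, 5 were S2D4 replicate 4: COL1A1 at 148 CPM where the others were at 74.2 to 80.1, COL16A1 at 16.2 against 5.21 to 6.78, COL26A1 at 10.2 against 1.41 to 2.0, COL4A6 at 3.73 against 23.0 to 25.3, and COL22A1 at 1.33 against 21.1 to 22.8. The first 3 genes were nearer to the untreated level there than in the other S2D4 libraries, and COL4A6 and COL22A1 nearer to the S1D4 level.

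COL19A1 was at 72.1 CPM in untreated SK-N-AS replicate 4 and at 15.6 to 24.7 in the others. COL6A2 was at 1009.6 CPM in S2D30 replicate 4 and at 1056 to 1066 in the others. COL6A3 was at 1.10 CPM in S1D4 replicate 3, with the others at 1.55 to 1.60. COL9A2 was at 0.419 CPM in S2D4 replicate 1, with the others at 0.0543 to 0.0972.

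The 30-day change differed between the lines for 23 of the collagen genes with library values, by the interaction term of edgeR's quasi-likelihood test. On the log2 scale, GIMEN minus SK-N-AS, the difference was positive for 14 genes, COL1A1 (0.47), COL3A1 (1.05), COL11A2 (1.61), COL27A1 (2.36), COL4A2 (4.00), COL6A6 (6.79), COL9A1 (4.87), COL9A2 (2.70), COL9A3 (2.74), COL12A1 (1.27), COL14A1 (0.96), COL19A1 (3.06), COL18A1 (0.62) and COL26A1 (7.94). It was negative for 9 genes, COL5A1 (-1.40), COL5A2 (-2.14), COL4A5 (-1.28), COL4A6 (-5.99), COL6A1 (-0.71), COL6A2 (-2.10), COL16A1 (-1.67), COL7A1 (-1.66) and COL13A1 (-2.47). Of all 34 tested collagens, 16 were called positive and 11 negative, with 25.2% and 24.5% over all genes. COL6A6, COL9A1 and COL14A1 have library values only because of a large called change in some comparison, so these 23 genes were partly chosen by such changes. COL4A2, COL6A6, COL9A1 and COL26A1 rest on GIMEN groups at the floor. After removal of GC content and length trends the calls were lost for COL18A1, 0.17 (adjusted p = 0.458), and COL1A1, 0.20 (adjusted p = 0.335). With all 22 libraries in the model they were lost for COL1A1, 0.44 (adjusted p = 0.155), COL14A1, 0.94 (adjusted p = 0.268), and COL26A1, 7.89 (adjusted p = 0.299).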

How the results depend on the processing

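With 1 library left out at a time, 2073 values of collagen genes kept their direction and their side of the threshold, 53 lost a call and 23 gained one in the same direction, and 28 that were not called before or after changed sign. COL1A1 from S1D4 to S2D4 changed sign and became called without S2D4 replicate 4, at -0.27 (other libraries left out, up to 0.13), as did MRC2, a collagen receptor, from S2D4 to S2D30, at 0.39 (down to -0.64). No count of called collagens moved by over 1.5 times in any alternative run. DESeq2's size factors changed no call of a collagen gene, and DESeq2's own test lost 2 and gained 5. After removal of GC content and length trends, 4 collagen values that were called in 1 of the fits changed sign: between the untreated lines COL11A2 went to 0.014, COL16A1 to 0.31 and COL18A1 to 1.02, and from S1D4 to S2D4 COL6A1 went to 0.19. The receptors DDR1, between the untreated lines, and MRC2, in GIMEN, changed sign too, to 0.19 and -0.19. A further 5 calls of collagen genes were lost and 9 gained; the cause was not tested. A term that sets replicates 3 and 4 of the untreated and S1D4 groups apart lost no call and gained 4, given beside COL6A6 and the change from S1D4 to S2D4. In S1D4 the chi-square per degree of freedom was 6.70 for replicates 1 and 2 and 3.16 for 3 and 4, against 24.1 to 27.4 across these pairs. With CPM of the total count in place of TMM scaling, the summed collagen level was 3065 in untreated SK-N-AS, 4343 in S1D4 and 13232 in untreated GIMEN. Between the untreated lines, upper-quartile factors moved the median of all genes by -0.153 (4979 higher and 7061 lower, against 5738 and 6271) and removal of the trends by -0.150 (5379 and 6366).

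The replicate numbers are not said to pair libraries, and same-numbered libraries did not deviate together in all pairs (r from 0.0436 to 0.293 for S1D4 and untreated, with 3 of 4 best with their own number, and from -0.101 to 0.103 in the other comparisons). With the replicate number as a block, 12 collagens rose and 12 fell in S1D4, against 11 and 11, and 11 rose and 12 fell from S2D4 to S2D30, against 10 and 12; the other counts did not move. Genes with few counts in a group have the loosest fold changes, and 3 or 4 libraries a group limit the rest.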
